A study of Mus musculus with 12 samples.

Results

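The comparison described here asks how IL-2 changed the RNA of mouse CD4 T blasts that had been stimulated with phorbol 12-myristate 13-acetate (PMA) and calcium ionophore. It compared 6 of the 12 RNA-seq libraries of the series. Of these, 3 were of stimulated blasts kept in IL-2 (TB+ IL-2) and 3 of stimulated blasts from which IL-2 had been withdrawn (TB+ IL-2nil). All blasts were CD4 T cells taken from spleens of C57BL/6 C42 mice and activated with the lectin concanavalin A at 2 µg/ml for 40 h before growth in IL-2 at 50 U/ml, which lasted 2 days by the labels. For the IL-2nil groups IL-2 was absent for the last 16 h, and the stimulation lasted 2 h by the study's methods. The other 6 libraries were resting blasts (TB IL-2 and TB IL-2nil), which had the same culture and no stimulation. C42 mice carry a human transgene of the IL3 and CSF2 locus, and how reads from it were assigned is not given in the sources used here, which limits values of mouse Il3 and Csf2. Ages of the mice are not given in the labels.

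In 2 of the 4 groups 1 library was placed against its label. The library labelled TB IL-2nil replicate 3 was counted as the third TB+ IL-2 library, and the one labelled TB+ IL-2 replicate 3 as a resting TB IL-2nil library. This placement was chosen by measured values: each of the 12 library columns in the study's supplementary expression table was equal, within 0.1%, to exactly 1 library at all 1381 genes compared, and these 2 columns carried each other's labels. The next best library was equal at no more than 22 of those genes. Il2, which T cells transcribe only when stimulated, stood at 1368 FPKM in the library labelled TB IL-2nil replicate 3 and at 0.29 FPKM in that labelled TB+ IL-2 replicate 3. In the 5 other TB+ libraries Il2 ranged from 1095 to 2374 FPKM and in the 5 other resting libraries from 0 to 1.18 FPKM. Results are therefore given with the placement, and beside them with both libraries left out or in their labelled groups.

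IL-2 binds a receptor made of the chains Il2ra, Il2rb and Il2rg and acts through the kinases Jak1 and Jak3 on the transcription factor STAT5, and through PI3 kinase and mTOR on growth and metabolism. In T blasts it sustains division and survival. PMA and calcium ionophore bypass the antigen receptor: they switch on protein kinase C and calcineurin, and through them AP-1, NF-kB and NFAT, the factors that drive cytokine genes. T cells that have already been activated keep open chromatin sites and answer a new stimulus faster, a state known as priming.

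Values are TPM, a measure of transcript abundance per length, made here by rescaling the FPKM of each library to a sum of 1000000 and then to a common upper quartile. A gene was called when it differed over 3-fold with an adjusted P under 0.05 (limma on log2(TPM + 1), Benjamini-Hochberg over 12442 genes above 1 TPM in at least 1 library). Log2 differences are TB+ IL-2 minus TB+ IL-2nil, so a positive one is higher with IL-2, and they understate changes of genes with few TPM. Where 6 values are listed they run TB+ IL-2 replicate 1, replicate 2 and the library labelled TB IL-2nil replicate 3, then TB+ IL-2nil replicates 1, 2 and 3. Nothing in the labels says that replicates came from separate mice or cultures, so P values measure the spread between these libraries.

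The read depth of the libraries is unknown, since the files used here hold no counts. Low FPKM values put the relative depth of the 6 stimulated libraries at 0.919 to 1.26 of the median library. Short non-coding RNAs took 22.2% to 27.5% of the summed FPKM in TB+ IL-2 and 33.0% to 53.2% in TB+ IL-2nil, with no overlap, and their part in the results was not tested beyond leaving them out. Markers of the labelled cell type were abundant: the 10 CD4 T cell markers summed to 3011 to 3455 TPM in TB+ IL-2 and 3496 to 4318 TPM in TB+ IL-2nil, and 1 of them was higher with IL-2 at the adjusted P defined above (Thy1, log2 difference 0.81 ± 0.22) and 4 lower (among them Cd2, -0.61 ± 0.18). The 2 CD8 T cell markers summed to 7.27 to 29.5 TPM and 8.64 to 22.0 TPM. The 8 B cell markers summed to 2.74 to 4.59 TPM and 7.14 to 15.4 TPM, and the 10 myeloid markers to 2.38 to 3.35 TPM and 3.62 to 9.96 TPM, with Lyz1, S100a8 and S100a9 listed at 0 in all 6. For 5 natural killer cell markers the sums were 0.13 to 0.48 TPM and 0.23 to 0.39 TPM, with Ncr1 at 0. Erythroid and platelet markers summed to 1.32 to 13.7 TPM and 0.99 to 1.36 TPM, with Hbb-b1 and Pf4 among those at 0. The sums of the CD4 T cell, B cell and myeloid lists were lower with IL-2 and did not overlap between the groups, and those of the other 3 lists overlapped. Of the 7 B cell markers tested 3 were lower with IL-2 at the adjusted P and under 3-fold, Cd79a (-0.88 ± 0.28), Cd79b (-1.07 ± 0.31) and Ms4a1 (-0.65 ± 0.20), as was Itgax (-0.62 ± 0.17) of 5 myeloid markers, and the part of such cells in other results was not tested.

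Stimulated blasts kept in IL-2 had many more genes called higher than lower. Of the 12442 genes 400 were higher with IL-2 (3.21%) and 51 were lower (0.41%). The replication enzyme Rrm2 led the genes that rose and Gm14085 those that fell, among genes of at least 5 TPM whose 3 against 3 values did not overlap. At the adjusted P alone, 1599 genes were higher (12.9%) and 1045 lower (8.4%), while without upper quartile scaling these counts were 1428 and 58 and the calls 624 and 14. That alternative moved the median of all genes from -0.04 to 0.23 on the log2 scale. With both moved libraries left out 305 genes were called higher and 37 lower, of which 297 and 28 were also called with them. In the labelled groups, which put 1 library without induced Il2 into TB+ IL-2, 13 and 2 genes were called. Of the 65 called genes named here 16 lost the call with both moved libraries left out: Birc5, Slc16a3, Scd2, Il12rb1, Rasl11b, Ifit1, A630023P12Rik, Sntb1, Zbtb4, Gpr183, Xcl1, Pik3ip1, Klf4, Tm7sf2, Cdc6 and Dna2. Values of the 2 groups did not overlap for 398 of the 400 and 48 of the 51 called genes, against 4628 of all genes (37.2%). A principal component with 45.0% of the variance separated the 6 libraries by IL-2. Just inside the 3-fold line stood Nemp1 and Tube1 (both 1.59 on the log2 scale), and just outside it Gpx4 and Isg15 (both 1.58).

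**Figure D1:**
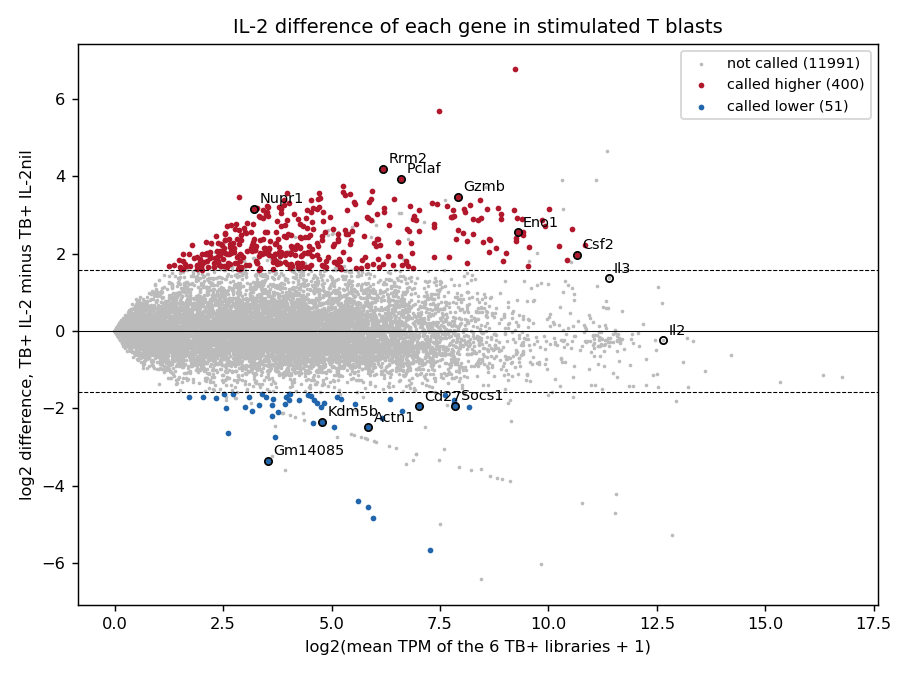
Each point is 1 gene, with log2 of its mean TPM plus 1 over the 6 stimulated libraries on the x axis and its log2 difference (TB+ IL-2 minus TB+ IL-2nil) on the y axis. Red points were called higher (400), blue points lower (51), and dashed lines mark 3-fold. Il2 sits near 0 at the far right, while Rrm2 and Pclaf lie highest among the labelled genes.

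Genes of DNA replication rose with IL-2 in stimulated blasts. Of 24 replication and nucleotide supply genes 21 rose and 0 fell past the call, and their median log2 difference was 2.90 beside -0.04 over all genes. Rrm2, the small subunit of ribonucleotide reductase (chr12:25393106-25399011, mm9), stood at 145, 81.3 and 189 TPM with IL-2 and 6.58, 3.98 and 8.84 TPM without (log2 difference 4.19 ± 0.34 (SE), adjusted P = 5.2e-05). All 3 libraries with IL-2 lay far above all 3 without. Its partner Rrm1 stood at 115, 74.9 and 139 TPM with IL-2 and 8.39, 8.44 and 10.6 TPM without (log2 difference 3.41 ± 0.24). Lig1, which seals Okazaki fragments, stood at 83.7, 47.5 and 84.2 TPM with IL-2 and 5.99, 4.07 and 5.78 TPM without (log2 difference 3.50 ± 0.28 (SE), adjusted P = 5.2e-05). Cdc45 and Mcm5, parts of the replicative helicase, differed by 3.38 ± 0.34 and 3.34 ± 0.29 on the log2 scale. The 3 members that were not called were Cdt1 (1.33 ± 0.38) and Pcna (1.28 ± 0.19), which passed the adjusted P at under 3-fold, and Tyms (0.40 ± 0.20, adjusted P = 0.17). With both moved libraries left out 19 of the 24 were called. In a bulk sample, fewer cells in S phase and less RNA per cell cannot be told apart.

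The promoter of Mcm5 is shown because E2F factors are textbook regulators of this helicase gene. Below are the 250 bases before its start from RefSeq (chr8:75109259-75109508, GRCm38.p6, plus strand), with the letters TTTNNCGC of an E2F site in capitals on either strand, where the matches of both strands overlap:
Mcm5: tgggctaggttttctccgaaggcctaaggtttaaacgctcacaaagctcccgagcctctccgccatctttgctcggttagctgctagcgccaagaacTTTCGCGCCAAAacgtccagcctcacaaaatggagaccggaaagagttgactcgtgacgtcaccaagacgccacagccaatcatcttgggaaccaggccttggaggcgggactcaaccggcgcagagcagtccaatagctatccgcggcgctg
These letters stood in the same window of 60 of the 325 genes called higher that had a promoter in that table (18.5%), beside 1335 of all its 27025 genes (4.94%) and 834 of the 9876 tested genes found there. Of the 51 genes called lower 36 had a promoter there and 4 of these held the letters. Under 80% of those 51 genes and of all tested genes were found there, so the check is void for both and they are given as counts only. The tested genes found there held the letters in a larger share than all genes, so 4.94% is a low background for called genes. A match is a description of letters and not a bound site.

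Histone genes rose as well. Of 64 replication-dependent histone genes tested, 52 were called higher and 0 lower, with a median of 2.63. Hist1h2an stood at 48.9, 89.3 and 72.9 TPM with IL-2 and 1.87, 7.44 and 4.72 TPM without (log2 difference 3.74 ± 0.49), Hist1h2ah differed by 3.62 ± 0.69 and Hist1h2bp by 3.54 ± 0.72. Histone genes are near-identical copies that share reads, so the value of a single one is uncertain. RNA was depleted of rRNA rather than selected for poly(A), which keeps these transcripts in the library. Without TB+ IL-2nil replicate 1 the count fell to 38 of the 64, and with both moved libraries left out it was 36. Other chromatin and replication genes among the 12 that rose most were Pclaf, a PCNA clamp factor (3.93 ± 0.36), Uhrf1, which maintains DNA methylation (3.58 ± 0.42), the histone chaperone Asf1b (3.55 ± 0.45) and geminin, Gmnn (3.44 ± 0.38). Drc1, known as a ciliary dynein regulator, stood at 12.9, 11.5 and 12.5 TPM with IL-2 and 0.278, 0.0734 and 0.267 TPM without (log2 difference 3.46 ± 0.16 (SE), adjusted P = 2.9e-06), the smallest adjusted P among the genes named here.

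Many mitotic genes rose with IL-2. Of 24 genes of mitosis and chromosome segregation 15 were called higher and 0 lower (median 2.41). Cyclin A2 (Ccna2) stood at 69.8, 63.9 and 110.5 TPM with IL-2 and 2.13, 9.33 and 14.7 TPM without (log2 difference 3.33 ± 0.69). Top2a, the topoisomerase of dividing cells, differed by 3.29 ± 0.52, the kinase Cdk1 by 3.07 ± 0.67, Mad2l1 of the spindle checkpoint by 2.94 ± 0.41, Birc5 by 2.95 ± 0.79 and the mitotic kinase Pbk by 3.57 ± 0.35. Mki67, the proliferation marker, stood at 183, 99.9 and 234 TPM with IL-2 and 7.53, 46.3 and 74.1 TPM without and was not called (adjusted P = 0.062), nor were Ccnb2 (adjusted P = 0.12) and Ube2c (adjusted P = 0.27). TB+ IL-2nil replicate 1 was the lowest library for each of these 3 genes. It also had the largest share of short non-coding RNA, 53.2%. Without it 8 of the 24 were called, and Birc5 lost its call (adjusted P = 0.089), as it did without TB+ IL-2 replicate 2 or the library labelled TB IL-2nil replicate 3. With the replicate number as a block Mki67, Ccnb2 and Ube2c passed (adjusted P = 0.019, 0.019 and 0.018). Leaving out both moved libraries left 10 calls.

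Among 17 genes of the G1 phase, 4 were called higher and 0 lower (median 1.25). E2f1, the factor of the G1 to S transition, stood at 22.6, 9.85 and 18.9 TPM with IL-2 and 0.829, 1.21 and 1.82 TPM without (log2 difference 2.93 ± 0.34 (SE), adjusted P = 3.5e-04). Cyclin E1 (Ccne1) differed by 2.34 ± 0.35, the pocket protein Rbl1 by 1.97 ± 0.29 and the inhibitor Cdkn2c by 2.01 ± 0.39. Without upper quartile scaling 9 of the 17 were called higher. Cdk4 passed the adjusted P below 3-fold (1.25 ± 0.18). Rbl1 and Cdkn2c act against the G1 to S transition, and E2f1 and Ccne1 for it.

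**Figure D2:**
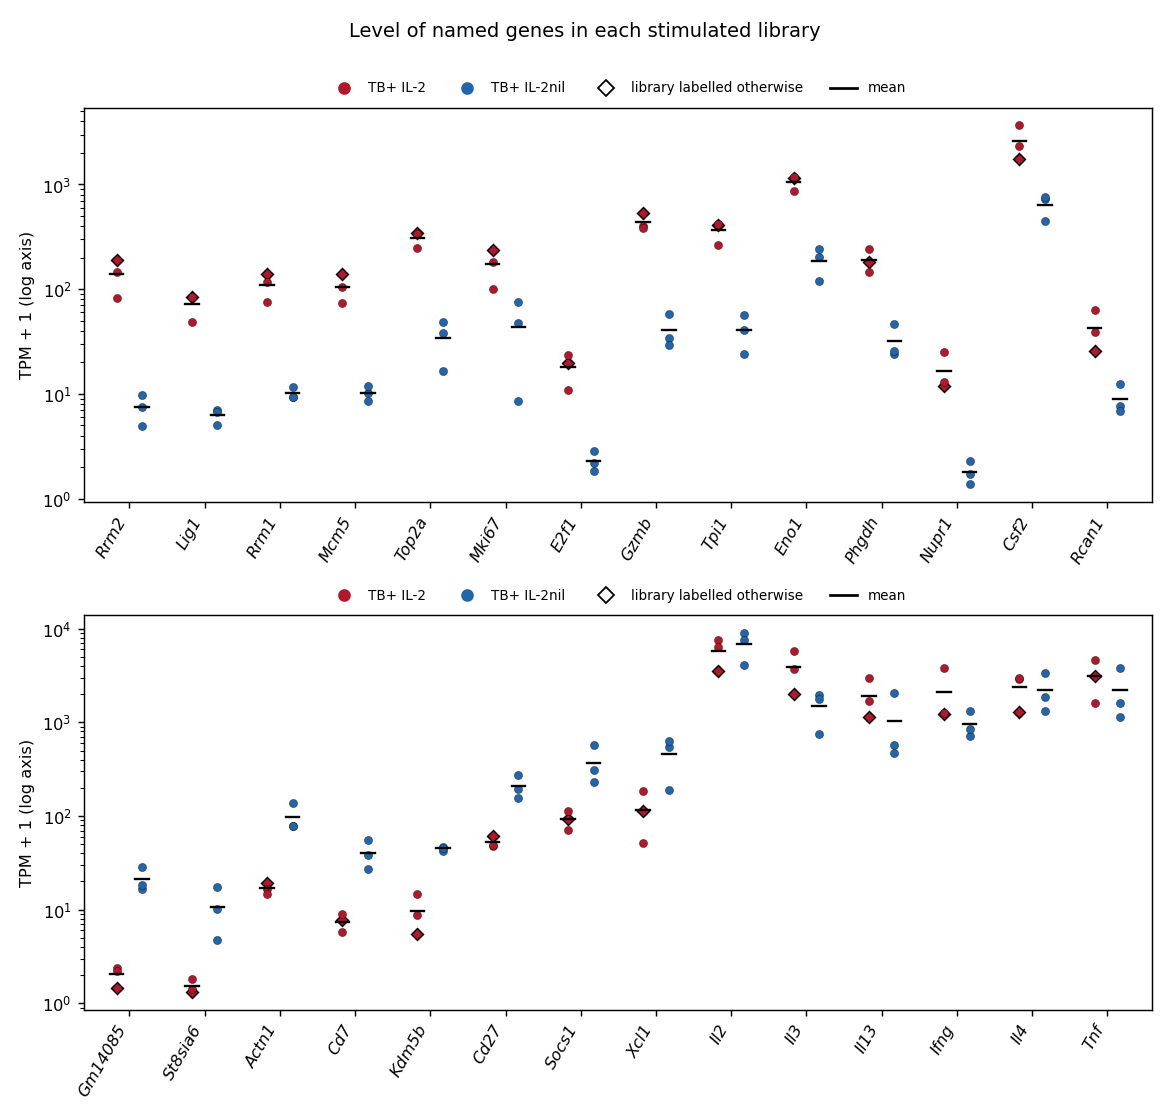
TPM plus 1 on a log axis in each stimulated library, for 28 genes, with TB+ IL-2 in red and TB+ IL-2nil in blue, a bar at the mean of 3, and a diamond for the library labelled TB IL-2nil replicate 3. The top panel shows genes higher with IL-2, where Rrm2 spans 81.3 to 189 TPM against 3.98 to 8.84 TPM, and the lower panel begins with genes lower with IL-2 and ends with cytokine genes whose groups lie close or overlap.

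Some abundant enzymes of glycolysis rose with IL-2. Of 20 genes of glycolysis and hypoxia 4 were called higher and 0 lower (median 0.98), and 7 were higher at the adjusted P alone. Triose phosphate isomerase, Tpi1, stood at 265, 422 and 412 TPM with IL-2 and 39.7, 56.2 and 23 TPM without (log2 difference 3.23 ± 0.36 (SE), adjusted P = 2.9e-04). Enolase, Eno1, stood at 871, 1173 and 1142 TPM with IL-2 and 118, 239.9 and 203 TPM without (log2 difference 2.55 ± 0.27). Bnip3, a hypoxia-induced mitophagy receptor, differed by 3.03 ± 0.50, and the lactate exporter Slc16a3 by 1.76 ± 0.50. Ldha (1.21 ± 0.21) and Pkm (adjusted P = 0.04) passed the adjusted P below 3-fold, whereas Gapdh (1.18 ± 0.43, adjusted P = 0.076) did not. Without upper quartile scaling 7 of the 20 were called. Several of these enzymes have processed pseudogenes that can take reads. Slc16a3 kept its call in only 2 of the 6 fits that left out 1 library (adjusted P up to 0.12, without the library labelled TB IL-2nil replicate 3; the call was also lost without TB+ IL-2 replicate 2, TB+ IL-2nil replicate 1 or TB+ IL-2nil replicate 3).

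Of 20 genes of sterol and fatty acid synthesis 2 were called higher and 0 lower (median 0.30), Fdps of the mevalonate pathway (106, 179.8 and 170.2 TPM with IL-2 and 33.7, 29.9 and 24.8 TPM without, log2 difference 2.30 ± 0.29) and the desaturase Scd2 (2.45 ± 0.65). Cyp51, an enzyme of late sterol synthesis (-0.08 ± 0.21), did not pass, and its sign was positive without upper quartile scaling, where 5 of the 20 were called. With both moved libraries left out 1 was called. Scd2 lost its call without TB+ IL-2 replicate 2, without TB+ IL-2nil replicate 1 or without the library labelled TB IL-2nil replicate 3 (adjusted P up to 0.093).

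Genes of the amino acid stress response that ATF4 drives had 3 of 17 members called higher and 0 lower (median 1.08). Nupr1, a small stress-induced chromatin protein (chr7:133766763-133770524, mm9), stood at 12, 23.9 and 11 TPM with IL-2 and 0.733, 0.375 and 1.31 TPM without (log2 difference 3.16 ± 0.29 (SE), adjusted P = 1.0e-04). Phgdh, the first enzyme of serine synthesis, stood at 146, 239 and 179.9 TPM with IL-2 and 22.9, 46 and 24.8 TPM without (log2 difference 2.59 ± 0.26), and the secreted protein Stc2 differed by 2.02 ± 0.36, a call lost without TB+ IL-2 replicate 2, where it was 1.58. Without upper quartile scaling 6 of the 17 were called. Chac1, which degrades glutathione, stood at 13.6, 66.4 and 9.7 TPM with IL-2 and 6.72, 14.5 and 5.61 TPM without and did not pass (adjusted P = 0.15). The Nupr1 promoter is shown for the C/EBP-ATF response element, TGATGNAA, in capitals on the minus strand of the print (chr7:126625471-126625720, GRCm38.p6, minus strand, the 250 bases before the start, RefSeq):
Nupr1: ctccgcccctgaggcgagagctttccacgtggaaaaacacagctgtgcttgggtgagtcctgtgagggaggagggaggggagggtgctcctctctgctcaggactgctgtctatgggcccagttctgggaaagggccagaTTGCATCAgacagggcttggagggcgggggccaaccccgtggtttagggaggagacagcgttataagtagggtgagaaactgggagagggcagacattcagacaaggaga
Those letters stood in the same window of 1056 of all 27025 genes of the table (3.91%) and of 6 of the 325 genes called higher (1.85%). Among the tested genes found there 253 of 9876 held them, and in the ATF4 list 3 of 15 (20%). A match is a description of letters here too, and no difference between these shares was tested.

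Among 9 cytotoxic granule genes tested, granzymes B and C were called higher. Gzmb, a serine protease that triggers death of target cells, stood at 401, 381 and 532 TPM with IL-2 and 33.5, 57.2 and 28.6 TPM without (log2 difference 3.48 ± 0.56 (SE), adjusted P = 0.002). Gzmc stood at 10.7, 12.9 and 16.5 TPM with IL-2 and 1.5, 3.57 and 2.39 TPM without (log2 difference 2.07 ± 0.30). Granzyme genes are close paralogs, and shared reads could move counts between them. Srgn, the granule proteoglycan, was lower (-0.78 ± 0.19, adjusted P = 0.016) at under 3-fold.

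Most cytokine genes, which the stimulus itself switches on, were not called. Of 21 cytokine genes 2 were called higher and 0 lower, with a median of 0.37. The count called was 4 with both moved libraries left out or with the replicate number as a block, 5 without upper quartile scaling and 3 with quantile normalization. Csf2, which encodes the myeloid growth factor GM-CSF (chr11:54060773-54063169, mm9), stood at 2332, 3656 and 1736 TPM with IL-2 and 730.2, 754 and 442 TPM without (log2 difference 1.97 ± 0.35 (SE), adjusted P = 0.0032). All 3 libraries with IL-2 were above all 3 without. With the moved libraries left out the log2 difference was 2.23 (adjusted P = 0.0088), and in the labelled groups -1.27 (adjusted P = 0.86), where the library labelled TB+ IL-2 replicate 3 stood at 1.04 TPM. With a pseudocount of 0.1 Csf2 lost its call (adjusted P = 0.10). Il22 stood at 4.52, 9.85 and 2.34 TPM with IL-2 and 0, 1.3 and 1.17 TPM without (log2 difference 1.78 ± 0.39), and its call was lost without TB+ IL-2 replicate 2 or TB+ IL-2nil replicate 1. Il3, the neighbour of Csf2 (chr11:54078805-54080779, mm9), stood at 3751, 5779 and 2026 TPM with IL-2 and 1949.7, 1777 and 752 TPM without and passed the adjusted P below 3-fold (1.36 ± 0.44, adjusted P = 0.048). Without the library labelled TB IL-2nil replicate 3 Il3 was called (1.76, adjusted P = 0.028), and in the 5 other fits that left out 1 library its adjusted P lay between 0.053 and 0.16. Il2 stood at 7657, 6315 and 3539 TPM with IL-2 and 8949, 7651 and 4116 TPM without (adjusted P = 0.8), with overlapping groups.

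The 250 bases before Csf2 and Il3 are shown because both neighbouring genes are known to answer to NFAT. They come from RefSeq (Csf2 chr11:54249900-54250149 and Il3 chr11:54267280-54267529, GRCm38.p6, minus strand), with GGAAA, the NFAT core, in capitals on either strand:
Csf2: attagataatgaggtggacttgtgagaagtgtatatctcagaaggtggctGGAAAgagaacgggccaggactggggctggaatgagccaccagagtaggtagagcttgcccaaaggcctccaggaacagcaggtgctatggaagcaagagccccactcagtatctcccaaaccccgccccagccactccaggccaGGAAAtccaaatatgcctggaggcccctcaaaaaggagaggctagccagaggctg
Il3: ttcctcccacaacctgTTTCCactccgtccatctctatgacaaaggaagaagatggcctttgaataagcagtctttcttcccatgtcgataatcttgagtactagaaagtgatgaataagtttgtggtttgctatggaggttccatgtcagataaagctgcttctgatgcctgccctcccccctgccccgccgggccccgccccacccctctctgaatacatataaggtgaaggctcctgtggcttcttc
No AP-1 letters (TGANTCA) stood in either window. GGAAA stood in the window of 15897 of 27025 genes (58.8%).

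A list of 14 genes was taken from the study, which had chosen them on these same libraries, so their direction is not independent evidence. The study set a lower fold threshold for them than the 3-fold used here. It also reported quantitative PCR for some of these genes, and weaker induction under the JAK inhibitor Ruxolitinib. Of the 14 genes, those called higher here included Csf2, Nupr1, Rcan1, Gm5907 and Rasl11b. Rcan1, an inhibitor of calcineurin (chr16:92392198-92466391, mm9), stood at 62.2, 37.8 and 24.4 TPM with IL-2 and 11.3, 6.66 and 5.91 TPM without (log2 difference 2.19 ± 0.32 (SE), adjusted P = 0.0011). It was the only one called of 11 calcineurin and NFAT genes. At the adjusted P alone 2 of the 11 were higher, Rcan1 among them, and 2 lower, Nfatc1 (-0.79 ± 0.21) and Nfat5 (-1.04 ± 0.32). Gm5907 differed by 2.48 ± 0.56 and Rasl11b by 1.69 ± 0.33, whose call was lost without TB+ IL-2nil replicate 1 or the library labelled TB IL-2nil replicate 3. Il3 and Gm10684 (1.39 ± 0.40) passed below 3-fold. Another 6 did not pass: Il31 (1.80 ± 0.61, adjusted P = 0.058), Il24 (1.69 ± 0.66), Gm2663 (1.37 ± 0.53), Chac1 (1.25 ± 0.57), Il13 (1.11 ± 0.62) and Ifng (0.95 ± 0.46). Within these genes the libraries differed by replicate number as well: Il31 stood at 2075, 1185 and 320.1 TPM with IL-2 and 531, 283 and 122 TPM without, and with that number as a block Il31 and Il24 were called (adjusted P = 0.02 and 0.028) and Il13 and Gm2663 passed below 3-fold (adjusted P = 0.031 and 0.035). Il31 and Gm2663 were also called with both moved libraries left out (2.57 and 2.08, adjusted P = 0.017 and 0.015), as were Il3 and Gm10684. Without upper quartile scaling Il31 (2.20, adjusted P = 0.013), Gm2663 (1.72, adjusted P = 0.026), Il24 (2.04, adjusted P = 0.047), Il3 and Gm10684 were called.

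The internal start of Rcan1 is shown because the gene has 2 starts in RefSeq and its 250 bases hold 3 copies of GGAAA and 1 AP-1 match, all in capitals (chr16:92400079-92400328, GRCm38.p6, minus strand), whereas the window of the first start held neither:
Rcan1: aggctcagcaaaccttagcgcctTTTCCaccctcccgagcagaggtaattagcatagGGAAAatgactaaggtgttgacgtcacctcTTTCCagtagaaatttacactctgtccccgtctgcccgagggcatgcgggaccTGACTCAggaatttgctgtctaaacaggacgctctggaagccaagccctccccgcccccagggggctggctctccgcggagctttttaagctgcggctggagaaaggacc
AP-1 letters stood in this window of 2113 of 27025 genes (7.82%). The deposited values are per gene and do not tell the starts apart.

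Other receptor and effector lists gave few calls. Il12rb1, a chain of the IL-12 and IL-23 receptors, was the only one called of 20 cytokine receptors (22.5, 25.9 and 37.2 TPM with IL-2 and 6.49, 11.1 and 7.68 TPM without, log2 difference 1.64 ± 0.28), a call lost without TB+ IL-2nil replicate 1 or the library labelled TB IL-2nil replicate 3. Il2ra, which gives the IL-2 receptor its high affinity, stood at 848, 805 and 630.1 TPM with IL-2 and 668, 600.3 and 554 TPM without and did not pass (adjusted P = 0.55). Ifit1 was the only one called of 19 interferon-stimulated genes (1.98 ± 0.44), of which 3 were called without upper quartile scaling and 0 with both moved libraries left out. None of 12 TNF superfamily ligands, 15 BCL-2 family genes or 10 regulatory T cell genes was called in either direction by limma, although the pro-death gene Bcl2l11 (-1.22 ± 0.22) and Bcl2a1b (-1.17 ± 0.27), 1 of several near-identical copies, were lower at an adjusted P of 0.0038 and 0.013. At the adjusted P alone these lists held 0, 2 and 0 genes higher and 0, 3 and 0 lower. At an unadjusted P under 0.05 they held 0, 3 and 0 higher and 2, 4 and 1 lower. Log2 differences in the BCL-2 list ranged from -1.43 to 1.38, and with short non-coding RNAs left out 1 of its genes was called higher.

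Several families of factors that respond to PMA and ionophore had no member called. None of 13 NF-kB genes, 13 AP-1 and BATF genes, 12 EGR and NR4A genes, 12 MAPK phosphatase and Sprouty genes or 15 lineage factors was called, and at the adjusted P alone 3, 2, 2, 2 and 3 of them were lower and 0 higher. At an unadjusted P under 0.05 limma gave 6, 4, 4, 7 and 8 lower and 0 higher. Of all 12442 genes 4374 passed that unadjusted P in either direction, and 8.4% were lower at the adjusted P alone. In the same order, the median log2 differences of the lists were -0.79, -0.76, -0.59, -0.83 and -0.83. Without upper quartile scaling, where the median of all genes was 0.23, they were -0.40, -0.37, -0.19, -0.44 and -0.44. Nfkbid, an inhibitor of NF-kB, stood at 1919.6, 1372 and 1505 TPM with IL-2 and 3619, 2403 and 2738 TPM without (adjusted P = 0.018). The NF-kB subunit Rel differed by -0.93 ± 0.29 (adjusted P = 0.043), Atf3 by -1.26 ± 0.31 (adjusted P = 0.016) and the Th2 factor Gata3 by -0.94 ± 0.17 (adjusted P = 0.0035). Junb, Nr4a3 and Irf4 did not pass (adjusted P = 0.31, 0.093 and 0.083). For each of them all 3 libraries without IL-2 were above all 3 with it, but 37.2% of all genes tested did not overlap. The groups overlapped for Fos, Egr3, Nfkb1, Irf8, Dusp2 and Dusp6 of these lists, and Egr3 (0.46) and Dusp6 (0.25) had positive differences.

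**Figure D3:**
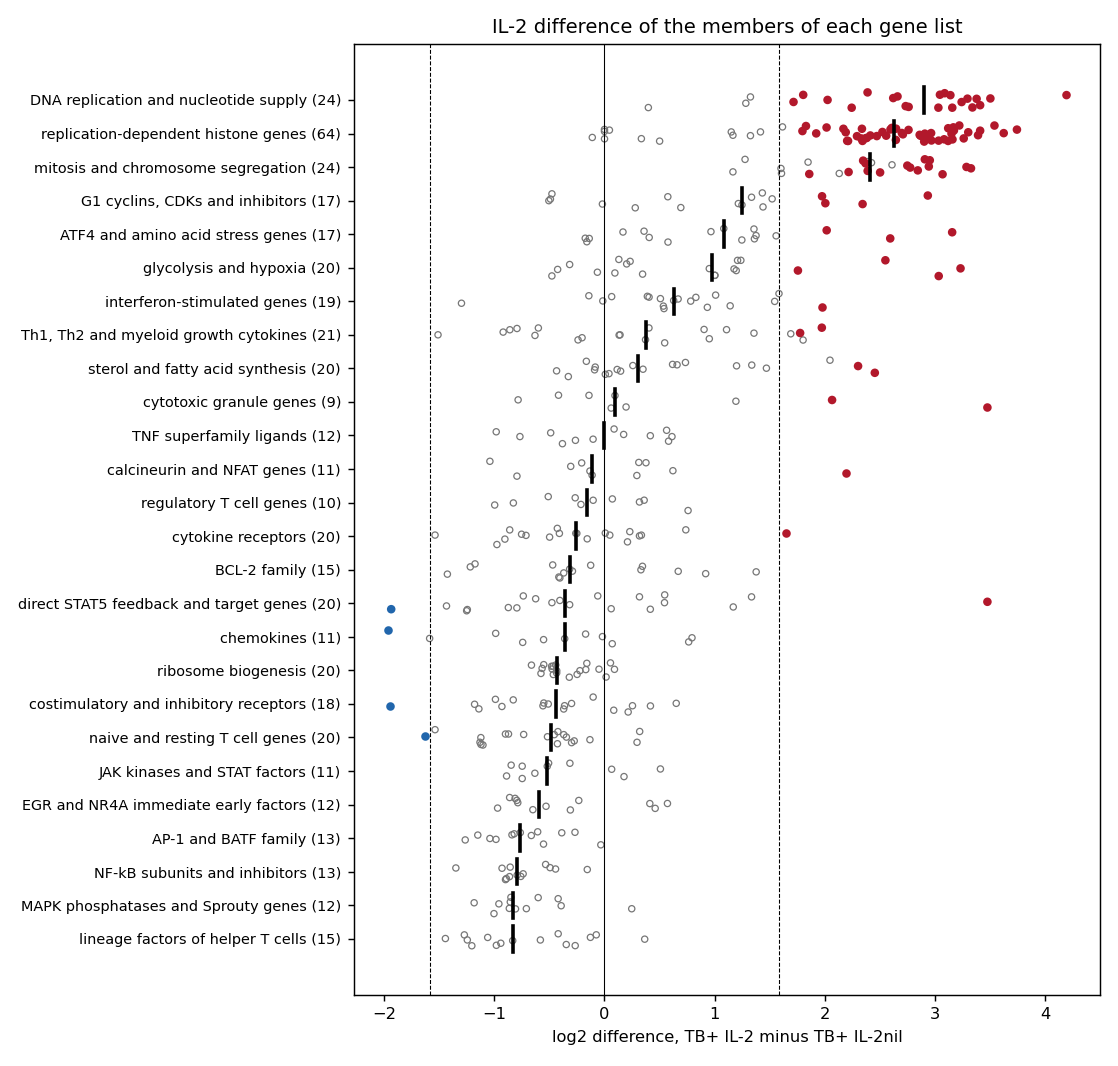
Log2 difference (TB+ IL-2 minus TB+ IL-2nil) on the x axis for each tested member of 26 gene lists, with the number tested in parentheses, a black bar at the median and dashed lines at 3-fold. Filled points were called. Replication, histone and mitosis genes lie to the right with medians of 2.90, 2.63 and 2.41, and the lists of stimulus-driven factors lie left of 0.

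Among the genes lower with IL-2, Gm14085 (chr2:122310677-122353776, mm9), annotated as protein-coding, stood at 1.4, 1.23 and 0.475 TPM with IL-2 and 15.5, 17.4 and 27.2 TPM without (log2 difference -3.36 ± 0.48 (SE), adjusted P = 0.0011). Kdm5b, which removes methyl groups from lysine 4 of histone H3, stood at 7.74, 13.5 and 4.51 TPM with IL-2 and 46.1, 41.6 and 44.9 TPM without (log2 difference -2.35 ± 0.27 (SE), adjusted P = 3.6e-04). Actn1, a cross-linker of actin, stood at 15.5, 13.7 and 18.5 TPM with IL-2 and 76.9, 77.8 and 136 TPM without (log2 difference -2.49 ± 0.24 (SE), adjusted P = 1.2e-04). In all 3 the groups lay well apart, and these genes had been named on the condition that the groups did not overlap. The surface protein Cd7 stood at 4.77, 7.94 and 6.71 TPM with IL-2 and 25.9, 37 and 53.8 TPM without (log2 difference -2.38 ± 0.30), and Cd27, a receptor of the TNF family found on naive and memory cells, at 46.9, 47.9 and 60.5 TPM with IL-2 and 193, 153 and 272 TPM without (-1.94 ± 0.33). Sdcbp2 (-2.49 ± 0.37), 4930417O13Rik (-2.26 ± 0.37) and the ubiquitin ligase Neurl3 (-2.11 ± 0.34) kept their calls whichever library was left out, as did Gm14085, Kdm5b, Actn1, Cd7 and Cd27. Less steady were the non-coding gene A630023P12Rik (-2.74 ± 0.65), the sialyltransferase St8sia6 (-2.63 ± 0.63), the syntrophin Sntb1 (-2.21 ± 0.51), Zbtb4 (-2.08 ± 0.52) and the oxysterol receptor Gpr183 (-2.06 ± 0.63). Each lost its call without TB+ IL-2nil replicate 1 (adjusted P = 0.058, 0.061, 0.053, 0.069 and 0.14). A630023P12Rik, St8sia6, Zbtb4 and Gpr183 also lost it without the library labelled TB IL-2nil replicate 3, Zbtb4 and Gpr183 without TB+ IL-2 replicate 2, and Zbtb4 without TB+ IL-2nil replicate 3.

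Of 18 costimulatory and inhibitory receptors Cd27 was the 1 called, and 3 were lower at the adjusted P alone, among them the adhesion receptor Cd44 (-0.83 ± 0.25). Of 20 genes of naive and resting T cells only Pik3ip1, an inhibitor of PI3 kinase, was called lower (0.891, 1.85 and 1.51 TPM with IL-2 and 5.44, 2.62 and 16.3 TPM without, log2 difference -1.63 ± 0.51), and it kept its call in only 1 of the 6 fits that left out a library, that without TB+ IL-2nil replicate 2. At the adjusted P alone 6 of the 20 were lower, among them Btg1 (-1.10 ± 0.23), which restrains division, and the chromatin organiser Satb1 (-0.90 ± 0.21). Of 11 chemokines Xcl1 was called lower (185, 50.6 and 113 TPM with IL-2 and 187, 548 and 633 TPM without, log2 difference -1.97 ± 0.53). Its highest library with IL-2 and lowest without it nearly met, and the call was lost without TB+ IL-2 replicate 2, TB+ IL-2nil replicate 2, TB+ IL-2nil replicate 3 or the library labelled TB IL-2nil replicate 3. Klf4, a factor of quiescence (-1.64 ± 0.40), lost its call in 4 of the 6 fits, without TB+ IL-2 replicate 2, TB+ IL-2nil replicates 1 or 3, or the library labelled TB IL-2nil replicate 3.

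Of 20 direct STAT5 feedback and target genes Gzmb was called higher and Socs1 lower. At the adjusted P alone 3 of the 20 were higher and 2 lower, and 8 of the 20 had a positive difference. Socs1, the feedback inhibitor of JAK kinases (chr16:10783901-10785629, mm9), stood at 112, 69.7 and 91.6 TPM with IL-2 and 568, 232 and 311 TPM without (log2 difference -1.94 ± 0.44 (SE), adjusted P = 0.011). Without TB+ IL-2nil replicate 1 its log2 difference was -1.58, just under 3-fold. Without upper quartile scaling Socs1 (-1.54) and Cd27 (-1.55) were both under 3-fold too. Cish, another feedback inhibitor, which was picked after its values were seen, stood at 363, 229 and 290.4 TPM with IL-2 and 659.7, 432 and 524 TPM without and did not pass (adjusted P = 0.17). Myc, the growth regulator, stood at 757, 697 and 574 TPM with IL-2 and 1665, 1465 and 1680.0 TPM without (adjusted P = 0.088), and the kinase Pim1 differed by -0.80 ± 0.36 (adjusted P = 0.14). None of 11 JAK and STAT genes was called by limma, though 3 were lower at the adjusted P alone, among them Jak1 (-0.89 ± 0.20), and 4 at an unadjusted P under 0.05.

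The resting libraries show which of these differences were present without the stimulus. TB IL-2 against TB IL-2nil gave 583 genes called higher (4.69%) and 340 lower (2.73%). The resting groups share no library with the stimulated ones. However, 1 fit over all 12 libraries set the spread and the scaling of both comparisons, so their calls are not independent. Of the 400 genes called higher under stimulation 285 were called higher at rest, which is 71.2% of the stimulated and 48.9% of the resting list. For genes called lower the overlap was 33, or 64.7% and 9.71%. Socs1 was the 1 gene called in opposite directions. The replication list had 23 of 24 called at rest and the mitosis list 16 of 24, with medians of 2.81 and 2.11, close to the stimulated ones. The STAT5 target list had 11 of 20 called higher at rest (median 1.78) and ribosome biogenesis 10 of 20 (median 1.59), while under stimulation their medians were -0.36 and -0.43. The median of the STAT5 list turned to 0.03 without upper quartile scaling.

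Whether the IL-2 difference itself changed with the stimulus was tested by the interaction of both factors. It passed at an adjusted P under 0.05 for 526 genes (4.23%), 195 with a more positive and 331 with a more negative IL-2 difference under stimulation. The count of 526 depended on the processing: it was 4 with both moved libraries left out, 1 without upper quartile scaling, 0 in the labelled groups and 1478 with the replicate number as a block, and with 1 library left out it ranged from 105 to 1302. At an unadjusted P under 0.05 it was 2875, 2211, 2265, 413 and 3994 genes for the placement, the libraries left out, no upper quartile scaling, the labelled groups and the block.

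Socs1 ranged over 132 to 396 TPM with IL-2 and 35.5 to 74.5 TPM without at rest (log2 difference 2.03 ± 0.44), against the lower level with IL-2 under stimulation, an interaction of -3.96 ± 0.62 (adjusted P = 0.012). Cish ranged over 145 to 197 TPM with IL-2 and 5.11 to 25.1 TPM without at rest, and its difference of 3.59 ± 0.43 there was set against -0.87 ± 0.43 under stimulation (interaction -4.46 ± 0.60, adjusted P = 0.011). Cish was 1 of the 4 genes that passed with both moved libraries left out (adjusted P = 0.031). Myc ranged over 40.2 to 180.3 TPM with IL-2 and 14.4 to 29.2 TPM without at rest, and every stimulated library stood above every resting one (interaction -3.73 ± 0.68). The Ras pathway inhibitor Spry1 (interaction -3.71 ± 0.56), the factor Irf8 (-3.21 ± 0.71), the amino acid transporter Slc7a5 (-2.76 ± 0.42), the costimulatory receptor Tnfrsf4 (-2.02 ± 0.34) and Il2ra (-2.13 ± 0.49) had the same pattern, each higher with IL-2 at rest and not called under stimulation. Fbl, of 20 ribosome biogenesis genes of which 11 passed this test, had an interaction of -1.87 ± 0.28, and the sterol gene Cyp51 of -2.35 ± 0.29. Among genes called in the stimulated comparison 13 passed. The IL-2 difference was larger under stimulation for 1810009J06Rik (interaction 2.50 ± 0.40), the chemokine Ccl7 (1.84 ± 0.33), Treml2 (1.44 ± 0.29), Tm7sf2 (1.31 ± 0.28) and Mrpl34 (1.99 ± 0.43). It was smaller for the replication genes Cdc6 (-1.78 ± 0.43) and Dna2 (-1.28 ± 0.31). These 2 genes had stimulated means of 3.67 and 3.72 TPM with IL-2 and 0.31 and 0.38 TPM without. At such low levels log2(TPM + 1) understates a difference, and its share in these 2 interactions was not tested. The calls of Cdc6, Dna2 and Tm7sf2 in the stimulated comparison were lost without the library labelled TB IL-2nil replicate 3, that of Tm7sf2 also without TB+ IL-2nil replicate 2, and that of Ccl7 without TB+ IL-2 replicate 1. Ccl7 was listed at 0 in all 6 resting libraries. At rest 1810009J06Rik stood at 0 TPM with IL-2 and at 0 to 0.55 TPM without. A resting IL-2 difference could hardly be seen for either gene, so both interactions mostly restate the stimulated difference.

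**Figure D4:**
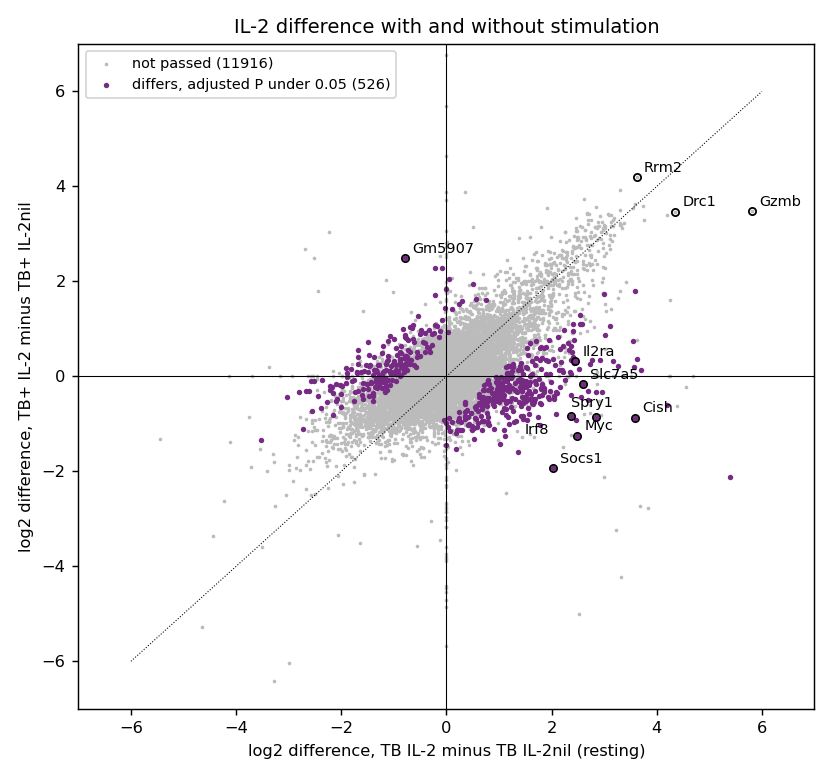
Each point is 1 gene, with its log2 IL-2 difference in resting blasts on the x axis and in stimulated blasts on the y axis, and a dotted line where both are equal. Purple points passed the interaction test (526 genes). Rrm2 lies near the dotted line, while Cish, Myc and Spry1 lie below 0 on the y axis and above 2 on the x axis.

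**Figure D5:**
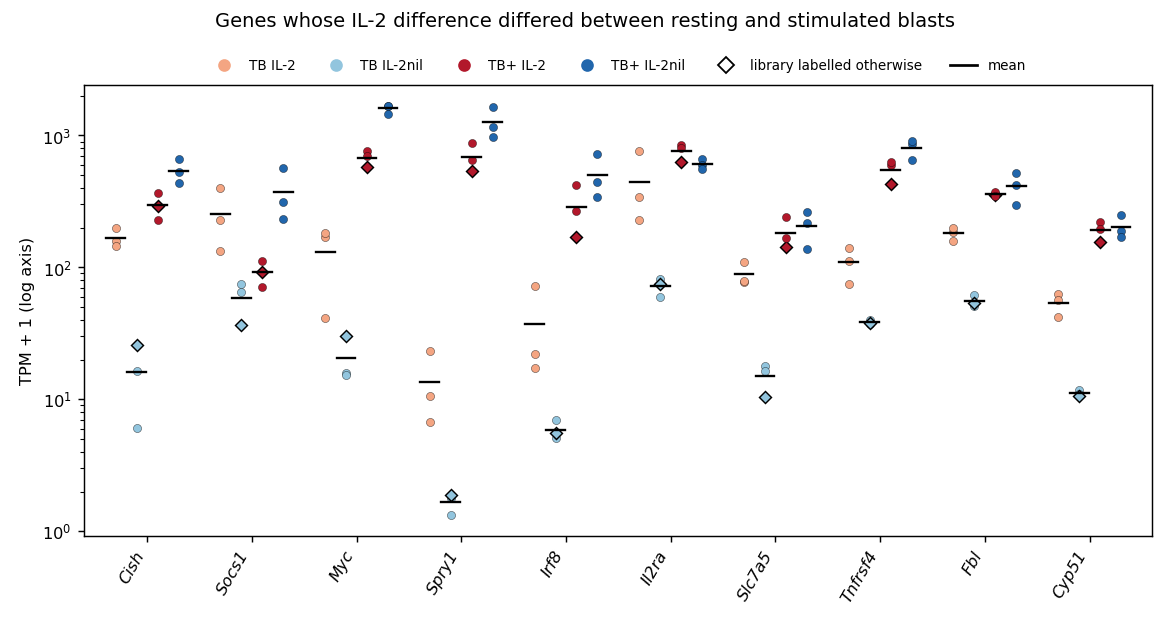
TPM plus 1 on a log axis in all 12 libraries for 10 genes, in the groups TB IL-2, TB IL-2nil, TB+ IL-2 and TB+ IL-2nil, with a bar at each mean of 3 and diamonds for both moved libraries. For each of the 10 genes the resting libraries with IL-2 lie above those without, whereas for Cish, Socs1, Myc, Spry1 and Tnfrsf4 the stimulated libraries with IL-2 lie below those without.

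The study's supplementary tables list DNase I hypersensitive sites (DHSs) that depend on IL-2, primed ones (pDHSs) and inducible ones (iDHSs), with the nearest gene of each. Of 600 tested genes nearest to pDHSs 30 were called higher with IL-2 under stimulation (5%) and 1 lower, with a median of -0.04. Of 562 nearest to iDHSs 21 were called higher (3.74%) and 4 lower, with a median of -0.05. Over all genes 3.21% were called higher and the median was -0.04. At rest 66 of the pDHS genes were called higher (11%) and 13 lower (2.17%), and 22 of the iDHS genes higher (3.91%) and 26 lower (4.63%), beside 4.69% and 2.73% of all genes. The nearest gene need not be the gene a site acts on.

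Among 194 short non-coding RNAs tested 2 were called higher and 4 lower. Values of such short transcripts depend strongly on the length correction in FPKM, so no single one is described.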

How the data were processed

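RNA of 12 libraries in 4 groups was sequenced as total, rRNA-depleted, strand-specific RNA. The submitters' processing notes name Trimmomatic 0.32, HISAT2 2.1.0, StringTie 1.3.3 and mm9. The authors deposited 1 FPKM value per gene and library. Their methods speak of TPM, but the deposited FPKM values did not sum to 1000000, so they were rescaled to that sum and to a common upper quartile. Genes above 1 TPM in at least 1 library were tested on log2(TPM + 1) with limma 3.58.1 in R 4.3.3 over all 12 libraries, and the test was checked on simulated data. Same-numbered libraries deviated together (correlations of 0.101 to 0.531 in every pair), beside -0.416 to 0.171 for different numbers. The replicate numbers of the labels thus appear to pair the samples, although both ranges overlap. The calls in the text come from the fit without this pairing. With the replicate number as a block 427 genes were called higher and 61 lower. Without counts, no counting interval can be given.

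Members, lists and the placement of libraries were chosen with earlier results of these data known. Named genes were up to 5 called members per list and direction with up to 3 abundant ones that did not pass, the 12 largest non-overlapping changes per direction at a mean of 5 TPM or more, the study's 14 genes, Il2, Il2ra, and the 5 smallest interaction P values per direction. Cish and the Mcm5 promoter were chosen after their values were seen, as were markers and list members named for the adjusted P alone. A few genes that the rule names are not reported here. Alternatives covered placement, scaling, pseudocount, filters, the fit and each library left out. Coordinates are from the mm9 annotation, and promoters from RefSeq.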

Additional observations from a re-analysis of the deposited data

Results flagged for a closer look

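The IL-2 difference of 21 of the genes named above differed between stimulated and resting blasts at an adjusted P under 0.05 (limma, interaction), here as the log2 difference in TB+ minus that in TB. It was more negative under stimulation for Cish (-4.46), Socs1 (-3.96), Myc (-3.73), Spry1 (-3.71), Irf8 (-3.21), Slc7a5 (-2.76), Atf3 (-2.38), Cyp51 (-2.35), Il2ra (-2.13), Tnfrsf4 (-2.02), Fbl (-1.87), Cdc6 (-1.78), Dna2 (-1.28) and Pcna (-1.25). It was more positive for Gm5907 (3.27), 1810009J06Rik (2.50), Mrpl34 (1.99), Ccl7 (1.84), Btg1 (1.62), Treml2 (1.44) and Tm7sf2 (1.31). Cdc6 and Dna2 stood at few TPM under stimulation, where log2(TPM + 1) understates a difference. The same limit holds at rest for Ccl7 (0 TPM), 1810009J06Rik (up to 0.55 TPM) and Gm5907 (up to 2.19 TPM). With both moved libraries left out, Cish and 1810009J06Rik were the 2 of these 21 that passed, and without upper quartile scaling Spry1 was the 1 that passed. Groups held 3 libraries, too few to test single libraries as outliers.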

How the results depend on the processing

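The count of genes called higher moved from 400 to 13 in the labelled groups and to 624 without upper quartile scaling, and the count called lower from 51 to 2 and 14 there and to 119 with a pseudocount of 0.1. The count of genes whose IL-2 difference differed between TB+ and TB moved from 526 to 0 in the labelled groups, 4 with both moved libraries left out, 1 without upper quartile scaling, 241 with a pseudocount of 0.1 and 1478 with the replicate block. With 1 stimulated library left out in turn the 3 counts ranged over 309 to 463, 42 to 94 (94 without TB+ IL-2nil replicate 2) and 105 to 1302 (105 without the library labelled TB IL-2nil replicate 3, 1302 without TB+ IL-2nil replicate 3). The causes were not tested.

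Of 116 named genes 65 were called, and 45 of these kept the call whichever library was left out. In the labelled groups 2 of the 65 kept the call (Treml2 and Mrpl34), 61 lost it, and Csf2 (-1.27) and Pik3ip1 (0.35) changed sign. Uncalled genes that changed sign there included Egr3 (-2.89), Il3 (-2.15), Il13 (-2.04), Ifng (-1.91), Il31 (-0.97), Il2ra (-0.70) and Dusp6 (-0.57). Other sign changes were of genes near 0: with both moved libraries left out Cyp51 (0.058), Il2 (0.088) and Slc7a5 (0.0043), without upper quartile scaling Cyp51 (0.31), Il2 (0.16), Fbl (0.23) and Slc7a5 (0.23), and with quantile normalization Il2 (0.58). With 1 library left out in turn Cyp51 ranged over -0.20 to 0.081, Il2 over -0.58 to 0.086, Fbl over -0.39 to 0.018 and Slc7a5 over -0.43 to 0.043, with positive values without TB+ IL-2nil replicate 1 or the library labelled TB IL-2nil replicate 3. The replicate block gave calls to Mki67, Ccnb2, Ube2c, Il31 and Il24 and changed no other call of the 116. List medians that changed sign included, as labelled, those of cytokines (-1.27), sterol genes (-0.01), calcineurin and NFAT genes (0.36) and naive T cell genes (0.06), and, without upper quartile scaling, those of calcineurin and NFAT genes (0.27), STAT5 targets (0.03), TNF ligands (0.23), chemokines (0.03) and regulatory T cell genes (0.14). With both moved libraries left out the medians of the last 3 were 0.14, 0.03 and 0.01. Depth is unknown, so the precision of genes of few TPM cannot be given.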
